A study of Mus musculus with 6 samples.

Results

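The PIM kinases and the feedback genes of the JAK-STAT pathway were followed through 6 RNA-seq libraries of AML12 cells. The set comprised 10 of the 54532 genes in the deposited table, namely Pim1, Pim2, Pim3, Socs1, Socs2, Socs3, Cish, Stat3, Stat5a and Stat5b. Pim1 was picked on its large rise in cells labelled PP against cells labelled PA/OA, and the other 9 were chosen by what is known of their function and set beside it. The change of Pim1 is therefore given as a description with no test. AML12 is an immortalised line of mouse hepatocytes, derived from an animal transgenic for human TGF-alpha, and the labels give its genotype as WT. In 3 libraries the cells had received PA/OA (400 nM and 800 nM in the submitters' units) for 24 h, and in the other 3 they had received PP (250 µg/ml) for 24 h. The labels do not spell out PP. The design text names PP and PA/OA together while the labels of the PP libraries name PP alone, so whether those cells were given PA/OA as well is not clear. Untreated cells were not analysed here, so each value sets PP against PA/OA only. Nothing in the labels ties a library to its own culture, and the p-values therefore reflect the spread among these libraries, which may be technical.

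Totals ran from 24113169 to 32560589 counts per library. Levels are given as CPM, a gene's counts relative to the total of its library, after TMM scaling, which sets libraries to a common scale by assuming that most genes do not differ. Of the 15718 genes tested, 75.0% passed the threshold of 0.05 on the adjusted p (edgeR), 35.1% as higher and 39.9% as lower in PP. When libraries were scaled by their totals alone, the median log2 fold change of all genes went from -0.09 to -0.52, with 3235 genes higher and 8910 lower in place of 5510 and 6275, and upper-quartile scaling gave -0.32, with 4241 and 7688. As for the labelled cell type, parenchymal hepatic cells, 7 of 10 hepatocyte markers were tested, 2 higher, 3 lower and 2 not past the test, and the list summed to 3008 to 3220 CPM in PA/OA and 3721 to 4070 CPM in PP. The sum followed the keratin genes, which biliary cells share, Krt8 at 1775 and 1994 CPM and Krt18 at 975 and 1730 CPM. Of the more specific genes, Apob fell from 246 to 75.8 CPM and Hnf4a from 71.7 to 26.8 CPM. Albumin (Alb) was at 12.2 and 9.90 CPM. Apoa1 went the other way, from 2.0 to 2.7 CPM (log2 fold change 0.42), and Ttr from 1.5 to 0.8 CPM, neither past the test. Serpina1a and Cps1 had at most 12 counts in any library and were not tested. The log2 fold change of Krt8 (0.17) turned below 0 with library totals alone, with upper-quartile scaling and with the trend of values with abundance removed, and Krt18 and Alb were not past the test with that trend removed. All 4 tested biliary markers of 5 were higher, beside 35.1% of all genes, but with that trend removed 2 were higher and 1 lower. The list summed to 2429 to 2554 CPM in PA/OA and 4053 to 4496 CPM in PP, and Epcam was at 0. Its main part, the keratin gene Krt19, went from 2011 to 3513 CPM, with a log2 fold change that turned to -0.04 with the trend removed, while Spp1 rose by 1.37 and Sox9 by 0.71. The 7 macrophage markers summed to 54.8 to 64.9 CPM in PA/OA and 54.3 to 57.6 CPM in PP, with Adgre1 and Clec4f at 0 in every library. Those sums hold opposite changes, 1 higher and 1 lower of the 4 tested, as Cd68 rose from 2.78 to 27.3 CPM and Cd14 fell from 55.7 to 27.7 CPM. Lymphocyte markers summed to at most 0.300 CPM, endothelial markers to at most 1.50 CPM and stellate or fibroblast markers to at most 5.39 CPM in any library, with 2 of the last list lower, Des (by 0.82) among them. The part of these markers in the results was not tested. In bulk RNA, fewer cells of a type and less RNA per cell cannot be told apart.

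In the JAK-STAT pathway a cytokine or hormone binds its receptor, the receptor's Janus kinases phosphorylate STAT proteins, and paired STATs enter the nucleus and switch on target genes. Several targets act back on the pathway. CIS, the product of Cish, and the SOCS proteins bind activated receptors or Janus kinases and mark them for degradation. In the liver, STAT3 carries the acute phase response to interleukin 6, and STAT5 carries much of the response to growth hormone. The PIM genes are also known STAT targets. They code for serine/threonine kinases that are active as soon as they are made, so that the amount of mRNA and protein is a main point of their control, and they act in growth, survival and protein synthesis.

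STAT pairs are known to bind the inverted repeat TTCNNNGAA, which reads the same on both strands. RefSeq promoter windows (build GRCm38.p6, 250 bases before to 50 after a start site) were matched for 9 of the 10 genes, in 12 windows, and Socs2 had no entry. Of all 32851 such windows, 8.30% held the repeat and 0.457% held it at least 2 times. Only Cish and Socs3 held it among the 9 genes, and none held the same arms set 4 bases apart, which 6.95% of all windows held. These windows are shown for the genes with the repeat, written in capitals, and for Pim1 and Pim3, the genes of the set with the largest log2 fold changes under TMM scaling, whose windows lack it. Cish lay at chr9:107296409-107296708 (plus strand), Socs3 at chr11:117969317-117969616 (minus strand), Pim1 at chr17:29490535-29490834 (plus strand) and Pim3 at chr15:88861944-88862243 (plus strand).
Cish: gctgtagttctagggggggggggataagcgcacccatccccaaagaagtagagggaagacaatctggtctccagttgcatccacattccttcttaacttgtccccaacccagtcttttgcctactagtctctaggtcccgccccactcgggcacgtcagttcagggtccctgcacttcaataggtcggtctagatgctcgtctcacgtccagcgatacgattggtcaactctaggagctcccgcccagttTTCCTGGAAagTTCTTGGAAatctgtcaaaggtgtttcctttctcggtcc
Socs3: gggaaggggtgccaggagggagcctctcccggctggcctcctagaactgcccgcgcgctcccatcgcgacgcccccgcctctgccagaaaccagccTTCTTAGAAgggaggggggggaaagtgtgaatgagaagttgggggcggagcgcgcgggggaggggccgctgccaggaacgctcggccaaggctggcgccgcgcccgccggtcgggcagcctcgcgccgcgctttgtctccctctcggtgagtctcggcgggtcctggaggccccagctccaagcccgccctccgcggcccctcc
Pim1: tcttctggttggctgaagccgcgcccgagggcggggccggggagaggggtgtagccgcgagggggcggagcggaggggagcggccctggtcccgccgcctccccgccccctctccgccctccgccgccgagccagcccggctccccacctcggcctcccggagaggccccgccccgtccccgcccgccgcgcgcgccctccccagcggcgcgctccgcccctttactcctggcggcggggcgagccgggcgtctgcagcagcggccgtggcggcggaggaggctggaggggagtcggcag
Pim3: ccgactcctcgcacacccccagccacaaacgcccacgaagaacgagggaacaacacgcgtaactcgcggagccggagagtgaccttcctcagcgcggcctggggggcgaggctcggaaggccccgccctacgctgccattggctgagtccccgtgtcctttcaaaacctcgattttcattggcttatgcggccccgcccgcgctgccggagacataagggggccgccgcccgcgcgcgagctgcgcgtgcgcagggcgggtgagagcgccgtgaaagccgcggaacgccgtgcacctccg

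The copies in Cish, TTCCTGGAA and TTCTTGGAA, lay at bases 1 to 9 and 12 to 20 after the start site, and the copy in Socs3, TTCTTAGAA, at bases -154 to -146. The RefSeq start of Cish lies inside the gene as annotated in the count table, which begins at base 107296026. The Pim1 window had a GC content of 81.3%, above 99.3% of all windows, and that of Pim3 69.0%, above 88.9%. A second annotated start of Pim1 had 49.0%, close to the median of 52.7%. A match describes the letters in the window and not a bound site, and no match describes these 300 bases alone.

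Pim1, picked for its rise, had more mRNA in PP, as did Pim2 and Pim3, beside 35.1% of all genes called higher. Pim1 (chromosome 17, 29490812 to 29496111, build mm10) was at 11.1, 9.79 and 11.0 CPM in PA/OA replicates 1 to 3 and at 193, 202 and 192 CPM in PP replicates 1 to 3. The lowest PP library thus stood 17.3 times above the highest PA/OA library, and the coefficient of variation within a group was 6.95% in PA/OA and 2.67% in PP. Its log2 fold change was 4.20 ± 0.07 (SE), the 11th highest of all genes tested, and by CPM Pim1 went from above 45.0% to above 92.1% of the genes tested. The lincRNA gene Gm26885, on the other strand, shares 1114 bases of genome with Pim1 and had no count in any library. No use of strand is given in the sources used here, so reads from the 2 genes cannot be told apart.

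Pim3 (chromosome 15, 88862186 to 88865726), the PIM gene with by far the most mRNA in both groups, rose from 382, 364 and 375 CPM to 1805, 1935 and 1643 CPM. The groups did not overlap, and the log2 fold change was 2.26 ± 0.06 (SE, adjusted p = 3.46e-18, edgeR). Pim2 (chromosome X, 7878262 to 7883432), the third gene of the family, rose from 5.52, 5.13 and 4.72 CPM to 18.9, 22.7 and 20.3 CPM, again without overlap. Its log2 fold change was 2.01 ± 0.13 (SE, adjusted p = 4.56e-12, edgeR). Both rises were past the test under every scaling and with every library left out in turn. That of Pim3 was 1.58 once each library's trend of values with abundance was removed, against 2.23 for Pim2 there.

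**Figure D1:**
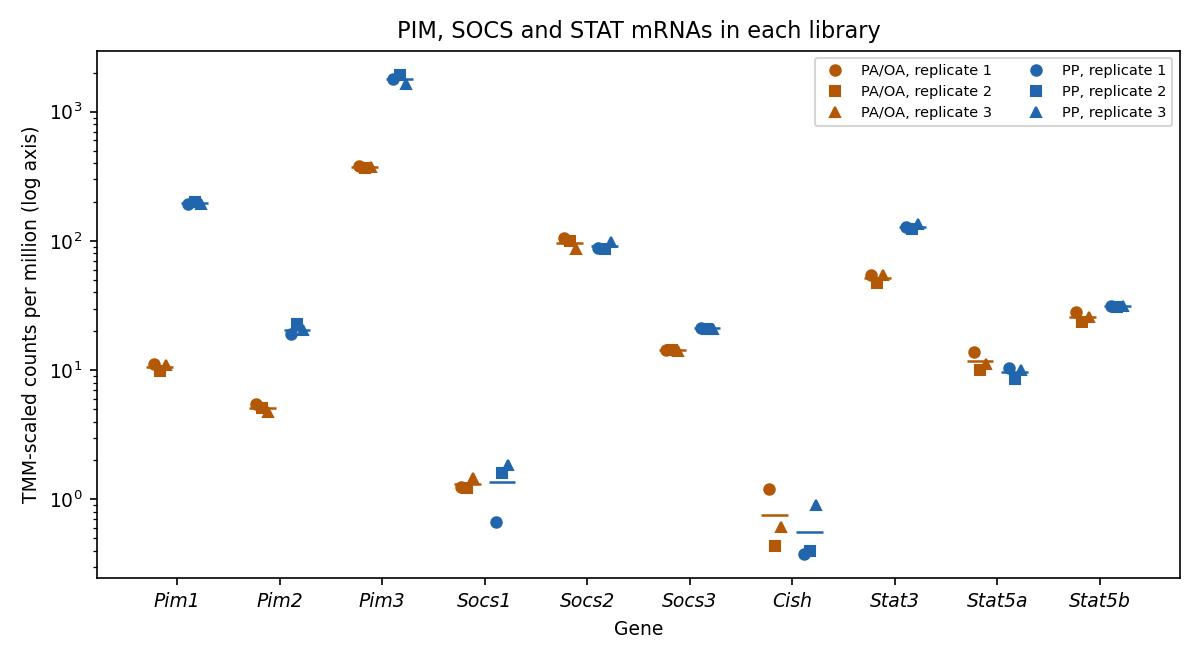
TMM-scaled CPM of the 10 genes on a log axis, 1 point per library with the replicate number as its shape, and a line at the mean of each group of 3. The PIM genes and Stat3 are set apart by group, while Socs1, Socs2, Cish and Stat5a overlap.

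Read as CPM per kilobase of the gene length in the deposited table (RPKM), Pim3 made up nearly all of the family. It took 96.3% ± 0.112 of the summed PIM level in PA/OA and 90.0% ± 0.543 in PP (SD, n = 3 each). Pim1 took 2.52% ± 0.118 and 9.06% ± 0.501, and Pim2 1.15% ± 0.0833 and 0.901% ± 0.0704. The summed level was 160 ± 4.02 RPKM in PA/OA and 821 ± 62.4 RPKM in PP. As TPM, where the levels per kilobase of all genes in a library are made to add to the same total and no TMM factor enters, it was 590 ± 24.0 and 2134 ± 129 TPM. In absolute level Pim3 thus accounted for most of the difference between the sums, although its log2 fold change was smaller than that of Pim1.

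**Figure D2:**
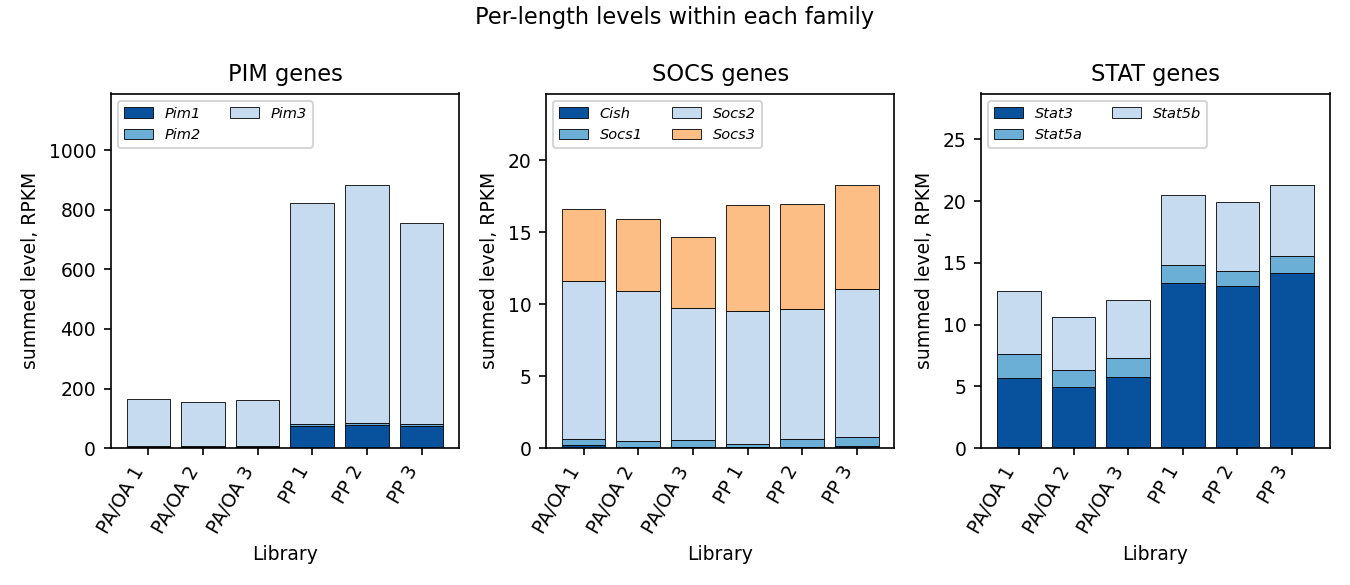
Levels per kilobase (RPKM) of the PIM, SOCS and STAT genes stacked for each of the 6 libraries, on linear axes that begin at 0. The PIM bars average 160 RPKM in PA/OA and 821 RPKM in PP and are mostly Pim3, while the SOCS bars average 15.7 and 17.4 RPKM on this TMM-scaled axis.

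Of the 4 feedback inhibitors 1 passed the test, beside 75.0% of all genes called in either direction. Socs3 (chromosome 11, 117966079 to 117970047), the inhibitor of receptors that signal through gp130, rose from 14.4, 14.4 and 14.2 CPM to 21.2, 21.0 and 20.9 CPM. Each PP library lay above each PA/OA library and the spread within groups was small, with coefficients of variation of 0.744% and 0.918%. The log2 fold change was 0.56 ± 0.10 (SE, adjusted p = 3.31e-05, edgeR), or 0.64 relative to all genes, but with library totals alone it was 0.12 and not past the test (adjusted p = 0.276, edgeR).

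Socs2 (chromosome 10, 95385362 to 95417180), a growth hormone target that restrains growth hormone signalling, was at 105, 99.6 and 87.1 CPM in PA/OA and at 88.3, 86.5 and 97.6 CPM in PP. The groups overlapped, and the log2 fold change of -0.10 was not past the test (95% interval -0.24 to 0.05, adjusted p = 0.207, edgeR). It was called lower with library totals alone (-0.53), with upper-quartile scaling (-0.34), with the abundance trend removed (-0.44) and without PA/OA replicate 3 (-0.17, adjusted p = 0.0291, edgeR).

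Cish (chromosome 9, 107296026 to 107302784) and Socs1 (chromosome 16, 10782240 to 10785536), the main inhibitor of interferon signalling, had few counts. Cish held 38, 13 and 17 counts in PA/OA and 9, 11 and 25 in PP, and Socs1 held 39, 37 and 41 against 16, 44 and 51. Neither pattern parted the groups. The log2 fold change of Cish was -0.41 with a 95% interval from -1.48 to 0.65, and that of Socs1 0.08 with an interval from -0.69 to 0.85, so no change was detectable at this depth, while a fall of 2-fold lies within the interval for Cish. The direction of Cish turned without PA/OA replicate 1 (0.12) and with the abundance trend removed (0.85), and that of Socs1 turned in 6 of the 16 alternatives. The 2 genes annotated over Cish on the other strand, Gm17040 and Gm17041, had no count in any library.

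Among the STAT genes, Stat3 rose. Stat3 (chromosome 11, 100885098 to 100939540), which codes for the factor downstream of interleukin 6, went from 54.0, 47.1 and 54.6 CPM to 127, 125 and 135 CPM. The lowest PP library stood 2.29 times above the highest PA/OA library, and the log2 fold change was 1.31 ± 0.07 (SE, adjusted p = 8.51e-14, edgeR), past the test under every scaling. Stat5b (chromosome 11, 100780731 to 100850724) was at 28.2, 23.8 and 26.0 CPM and then at 31.5, 31.0 and 31.7 CPM, without overlap. Its rise of 0.27 ± 0.09 (SE, adjusted p = 0.0077, edgeR) was lost with upper-quartile scaling (0.03, adjusted p = 0.734, edgeR) and turned to -0.16 with library totals alone (adjusted p = 0.0983, edgeR). Stat5a (chromosome 11, 100859351 to 100885169) was at 13.8, 10.1 and 11.2 CPM against 10.4, 8.61 and 10.1 CPM. Its log2 fold change of -0.27 was not past the test (95% interval -0.57 to 0.02, adjusted p = 0.0865, edgeR). It was called lower with library totals alone (-0.71), with upper-quartile scaling (-0.51), with a stricter filter (-0.33), with halved counts (-0.32) and without PA/OA replicate 2 (-0.37). The 3 STAT genes neighbour one another on chromosome 11, and the ends of Stat3 and Stat5a, which face each other on opposite strands, share 72 bases, where reads of one cannot be told from reads of the other without strand.

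Of the 9 genes other than Pim1, 5 were higher, 0 lower and 4 not past the test by edgeR, beside 75.0% of all genes called in either direction. At an unadjusted p under 0.05 the count was also 5, and 0 were lower by DESeq2 and limma-voom too. With Pim1, 6 of the 10 had groups that did not overlap, beside 77.4% of all genes. The 10 genes were taken up with this contrast known, so these counts describe them and support nothing further.

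**Figure D3:**
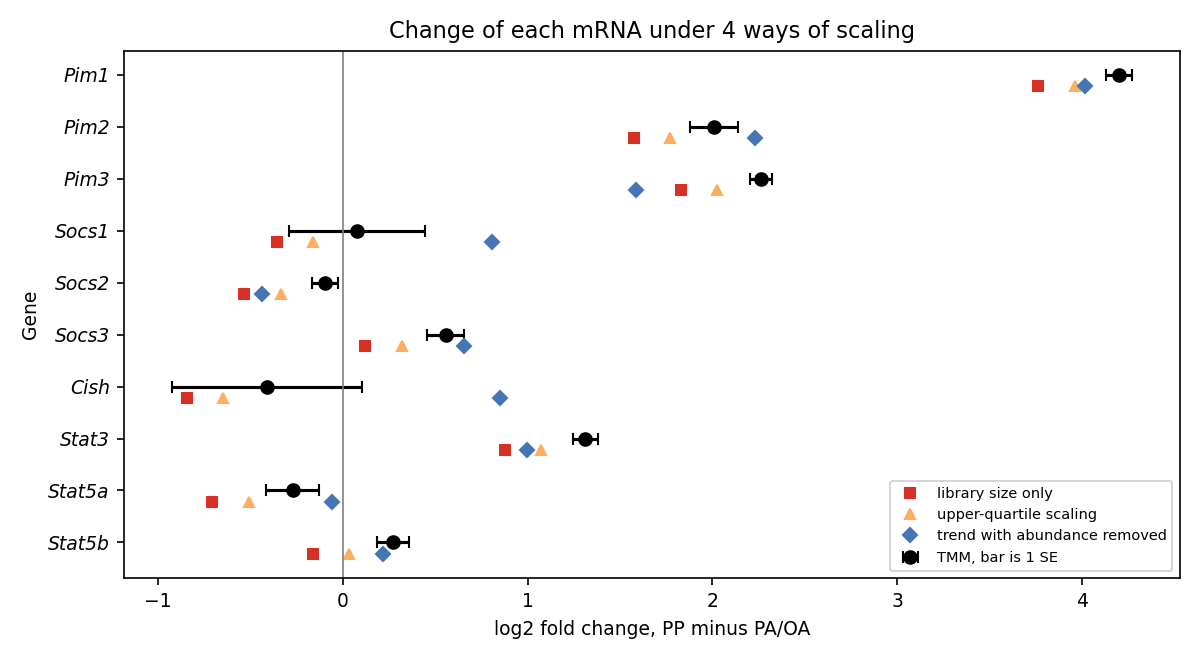
Log2 fold change (PP minus PA/OA) of each gene with TMM scaling (black, bar 1 SE) and under 3 other ways of scaling (coloured). The PIM genes and Stat3 stay above 0 throughout, while Socs1, Cish and Stat5b lie on both sides of 0 depending on the scaling.

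Ratios of 2 mRNAs within a library are the same whatever factor scales the library. The log2 ratio of Stat3 to Stat5b was 0.94, 0.99 and 1.07 in PA/OA and 2.01, 2.01 and 2.09 in PP, a difference of 1.04. That of Stat5b to Stat5a was 1.03, 1.24 and 1.21 against 1.60, 1.84 and 1.65, a difference of 0.54. Both ratios were higher in each PP library than in any PA/OA library. Between the feedback genes, the log2 ratio of Socs3 to Socs2 was higher by 0.65 in PP, without overlap, and that of Cish to Socs2 differed by -0.29 with overlap. That of Pim3 to Pim2 was 6.11, 6.14 and 6.31 against 6.57, 6.41 and 6.34, higher by 0.25. Removing the abundance trend is no single factor for a library, and the ratios were not run with it. There Pim3 rose by 1.58 and Pim2 by 2.23, so that the order of these rises turned. The exact two-sided permutation test gave p = 0.1 for the 4 ratios without overlap, the smallest that 3 against 3 allows (adjusted p = 0.125 over the 5 ratios by Benjamini-Hochberg), and p = 0.7 for Cish to Socs2.

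**Figure D4:**
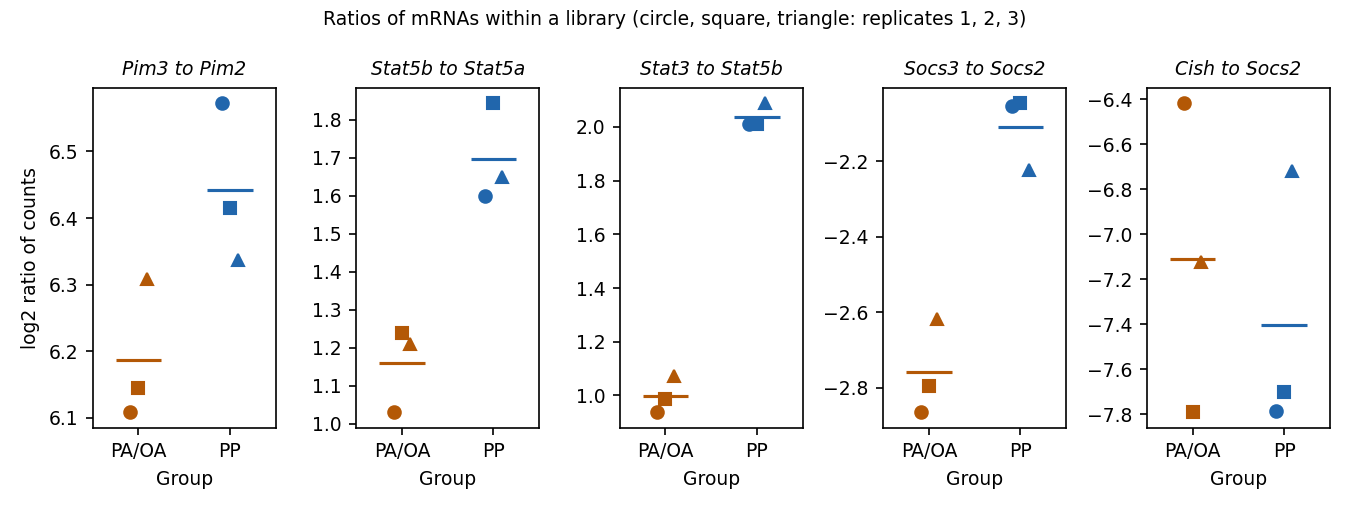
Log2 ratio of the counts of 2 genes in each library, with a line at the mean of each group, and a separate axis for each ratio. The Stat3 to Stat5b ratio is near 1.00 in PA/OA and 2.04 in PP, and Cish to Socs2 is the ratio whose groups overlap.

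Per kilobase, the order of the 10 genes differed between the groups, and Pim1 moved furthest. In PA/OA it ran Pim3 (154 RPKM), Socs2 (10.2), Stat3 (5.45), Socs3 (4.95), Stat5b (4.69), Pim1 (4.03), Pim2 (1.83), Stat5a (1.64), Socs1 (0.452) and Cish (0.117). Stat3 and Socs3, Socs3 and Stat5b, and Pim2 and Stat5a overlapped over their 3 libraries. In PP it ran Pim3 (739 RPKM), Pim1 (74.1), Stat3 (13.5), Socs2 (9.53), Pim2 (7.38), Socs3 (7.27), Stat5b (5.67), Stat5a (1.36), Socs1 (0.472) and Cish (0.0876), where of these neighbours Pim2 and Socs3 overlapped. Pim1 stood 6th in PA/OA and 2nd in PP. Socs2 stood above Stat3 in PA/OA and below it in PP, and Pim2 stood below Stat5b in PA/OA and above it in PP. Within the SOCS family Socs2 took 64.8% of the summed level in PA/OA and 54.8% in PP, and Socs3 31.6% and 42.0%, of sums of 15.7 ± 0.986 and 17.4 ± 0.766 RPKM (SD, n = 3 each). Among the 3 STAT genes Stat3 took 46.3% ± 1.57 and 65.8% ± 0.688, Stat5b 39.8% and 27.6%, and Stat5a 13.9% and 6.61%, of sums of 11.8 ± 1.05 and 20.6 ± 0.690 RPKM. As TPM the SOCS sum was instead lower in PP, 58.0 ± 4.61 in PA/OA and 45.2 ± 2.53 in PP, with Socs2 at 37.7 and 24.8 TPM and Socs3 at 18.3 and 18.9 TPM. The STAT sum was 43.5 ± 4.46 and 53.5 ± 2.74 TPM, with Stat5b at 17.3 and 14.7 TPM. The direction of the SOCS sum and of Stat5b therefore differed between these scales, while the shares within a library are the same on both. By these shares Stat3 had less than both STAT5 genes together in PA/OA and more than both together in PP.

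The stretch after the stop codon of many short-lived mRNAs holds the pentamer ATTTA, at the core of elements that recruit decay factors. In GENCODE M21 transcripts (GRCm38), taking for each gene the one with the longest such stretch, Pim3 held 5 copies in 964 bases, a density above that of 93.2% of 19921 genes. Pim1 held 5 in 1365 bases (above 84.8%), Socs3 4 in 1474 bases (above 74.1%) and Pim2 2 in 915 bases (above 66.1%). Stat3 held 2 in 3701 bases (above 34.3%), Cish 3 in 2248 (above 49.6%) and Socs1 0 in 1993. The densities of Socs2, Stat5b and Stat5a lay above those of 57.6%, 48.3% and 39.6% of genes. By number of copies alone, 22.8% of genes held at least as many as Pim1 or Pim3, and 49.6% at least as many as Pim2. These are counts of letters, and RNA stability was not measured.

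The pathway upstream was described from lists of ligands, receptors, kinases and STATs. Of 19 cytokine ligand genes 6 were tested, of which 2 were higher and 4 lower, beside the 75.0% of all genes that were called, with a median log2 fold change of -0.71 against -0.09 for all genes. Il6, Osm and Il10 were not tested, with at most 2 counts in any library. The interleukin 6 family ligand gene Clcf1 went from 46.6 ± 4.39 to 58.4 ± 2.07 CPM (SD, n = 3), a rise of 0.33 that turned to -0.11 with library totals alone and was not past the test under the other scalings but DESeq2's size factors. Lif, of the same family, fell from 67.6 to 47.3 CPM, by 0.52, and so stood above Clcf1 in PA/OA and below it in PP. Cntf, also of that family, rose by 1.65, from 0.585 to 1.84 CPM, with at most 57 counts in any library. Csf3, Thpo and Il7 fell by 1.58, 1.01 and 0.91 on the log2 scale, Il7 not past the test with the abundance trend removed (-0.39). Of 27 receptor genes 14 were tested, with 5 higher, 3 lower and 6 not past the test, beside the same 75.0%. With library totals alone 2 were higher and 6 lower. The growth hormone receptor gene Ghr rose from 9.20 ± 1.40 to 18.2 ± 2.29 CPM. Il6ra, which codes for the interleukin 6 binding chain, fell from 28.8 ± 0.840 to 13.2 ± 0.528 CPM. Il6st, which codes for gp130, the signalling chain, went from 215 ± 6.56 to 292 ± 27.9 CPM, a rise of 0.45 that was lost with library totals alone (0.01) and turned to -0.05 with the abundance trend removed. Ifngr2 rose by 0.71, and Il10rb and Il4ra fell by 0.79 and 0.36, Il10rb not past the test with the abundance trend removed (-0.40).

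The 4 Janus kinase genes split into 1 higher and 3 lower, under each scaling run, beside 75.0% of all genes called. Jak1 rose from 152 ± 7.80 to 319 ± 8.18 CPM, by 1.07 ± 0.05 on the log2 scale (SE, adjusted p = 1.03e-13, edgeR). Jak2, Jak3 and Tyk2 fell by 0.33, 0.59 and 0.19. Of the other STAT genes, Stat2, the interferon pathway member, rose from 41.7 ± 3.22 to 134 ± 7.73 CPM. Stat6 fell from 94.4 ± 3.43 to 69.9 ± 1.94 CPM, and Stat4 had no count. The directions of these genes held under each scaling run.

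Of 15 other inhibitors of the pathway, 10 were higher, 4 lower and 1 not past the test, beside 75.0% of all genes called. With library totals alone 6 were higher and 7 lower. The SUMO ligase gene Pias4 rose from 27.9 ± 2.69 to 107 ± 5.24 CPM, Socs7 by 1.02 and the phosphatase gene Ptpn2, which acts on Janus kinases and STATs, by 0.96. The phosphatase gene Ptpn6 fell by 1.63, Socs5 by 1.29 and the adaptor gene Sh2b3 by 0.82. Of 6 tested genes of ubiquitin ligases of the kind that SOCS proteins join, 5 were higher and 1 lower, beside the same 75.0%. With library totals alone 1 was higher and 1 lower. The scaffold gene Cul5 fell by 0.86 and Rnf7 rose by 1.02, both under each scaling run, while the rises of Eloc and Cul2, each 0.46, were lost with library totals alone, that of Cul2 also with the abundance trend removed.

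Known STAT targets went both ways. Of 29 STAT3 target genes 20 were tested, with 10 higher, 6 lower and 4 not past the test, beside 75.0% of all genes called. The median was 0.12, and with library totals alone 8 were higher and 10 lower. Saa3, an acute phase gene, rose from 0.897 ± 0.0661 to 4.57 ± 0.538 CPM, the survival gene Mcl1 from 189 ± 6.96 to 639 ± 35.0 CPM, and Hif1a by 1.46. Il1r1, the interleukin 1 receptor gene, fell by 2.86, the cyclin gene Ccnd1 from 549 ± 19.7 to 142 ± 12.4 CPM, and Myc by 0.44. The fibrinogen genes Fga, Fgb and Fgg had at most 4 counts in any library and were not tested. Of 9 STAT5 target genes 4 were tested, and 2 were higher and 2 lower, beside 75.0% of all genes called. With the abundance trend removed 1 was higher and 1 lower. Bcl6 and Bcl2l1 are also in the STAT3 list. Bcl6, a repressor, rose from 19.9 ± 0.483 to 47.4 ± 2.17 CPM, Bcl2l1 rose by 0.64, or by 0.09 with the abundance trend removed and then not past the test, and Ccnd2 fell by 1.28. Igf1, the growth hormone target, was at 0.101 and 0.0483 CPM and was not tested.

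Of 19 genes for reported PIM substrates 17 were tested, with 9 higher, 3 lower and 5 not past the test. That stands beside 75.0% of all genes called. With library totals alone 7 were higher and 8 lower. The forkhead factor genes Foxo3 and Foxo1 rose from 59.9 ± 1.40 to 375 ± 14.8 CPM and from 17.2 ± 1.08 to 77.0 ± 5.19 CPM. Cdkn1b, the gene of the cell cycle inhibitor p27, rose from 79.6 ± 7.88 to 351 ± 6.84 CPM. Akt1s1, which codes for a brake on mTORC1, fell by 0.60, Numa1 by 0.41 and Bad, a death gene of the BCL2 family, by 0.29. PIM kinases act on these proteins by phosphorylation, which was not measured.

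**Figure D5:**
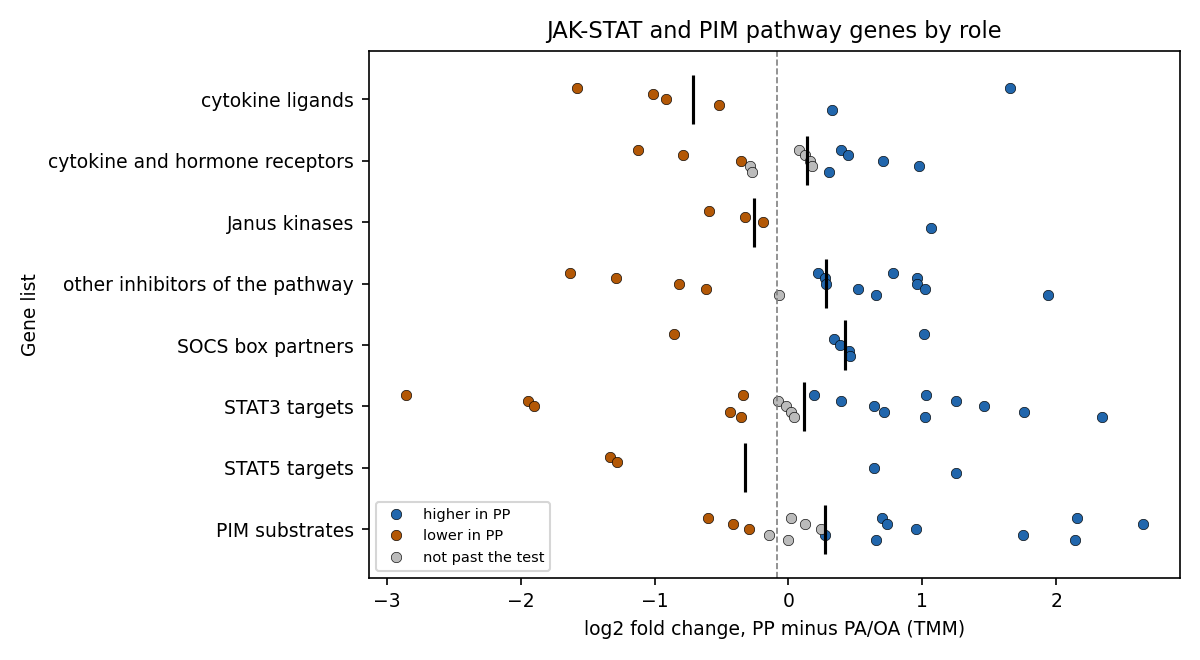
Log2 fold change of every tested gene in the lists of ligands, receptors, Janus kinases, other inhibitors, SOCS box partners, STAT targets and PIM substrates, blue if higher, brown if lower and grey if not past the test, with a black bar at the median of each list and a dashed line at the median of all genes (-0.09). Each list holds genes on both sides of 0.

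The genes most like Pim1 were sought by the root mean square distance between log2 profiles over the 6 libraries, each centred on its mean. Among 10308 protein-coding genes, the 5 nearest were Plat (tissue plasminogen activator, 0.18), the circadian genes Dbp (0.23) and Nr1d1 (0.24), Gadd45b (0.34), a stress-induced gene, and Mpp2 (0.35). Their levels went from 57.5 to 852 CPM for Plat, from 1.40 to 24.9 CPM for Dbp, from 10.9 to 146 CPM for Nr1d1, from 15.8 to 184 CPM for Gadd45b and from 3.61 to 51.3 CPM for Mpp2. With 2 groups, this likeness mostly describes a difference of similar size between PP and PA/OA.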

How the data were processed

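Total RNA of 6 AML12 samples was sequenced. The authors deposited raw counts by gene. The submitters' processing notes name featureCounts, DESeq2 1.16.1 and build mm10. Aligner, annotation and strand use: not given in the sources used here. Gene length, in bases, is another column that the authors deposited. Among genes with 1 to 20 counts, 57.1% to 61.5% of values were even, which would arise if both mates of some pairs were counted, so precision may be overstated.

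Groups follow the treatment labels. Genes were kept with filterByExpr (minimum count 10), scaled with TMM and tested with edgeR 4.0.16 in R 4.3.3 (quasi-likelihood F-test, two-sided, adjusted by Benjamini-Hochberg over all genes tested, threshold 0.05). Every one of the 10 genes passed the filter, Cish with 10 counts or more in 5 libraries. The SE comes from the fold change and F, and intervals are 95%. The code was tested on simulated data. Ratios used an added count of 0.5. Alternatives used DESeq2 1.42.0 and limma 3.58.1, among others.

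Replicates of a group were no copies of each other (chi-square divided by genes 3.03 to 4.72, on halved counts). Of gene IDs shared with GENCODE M21, 98.3% had the same start and end.

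The genes, lists and rules were chosen with earlier results of these data known. From each list, up to 3 genes per direction with the largest change among those past the test (average log2 CPM of at least 1) are named, with Janus kinase and STAT genes (1 item is not reported here), genes that overlap the 10, and the 5 protein-coding genes nearest Pim1. Named outside that rule, after their values were seen, were Lif, Cntf, Il6, Osm, Il10, Fga, Fgb, Fgg, Igf1, Adgre1 and Clec4f. So were Epcam, Apoa1, Ttr, Serpina1a and Cps1.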

Additional observations from a re-analysis of the deposited data

How the results depend on the processing

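The higher calls of Pim2, Pim3 and Stat3 held in all 16 alternatives, and the log2 fold change of Pim1 lay between 3.76 (library totals alone) and 4.24. With library totals alone 3235 genes were higher in place of 5510. The number of the 10 genes called lower, 0 with TMM, was 2 with library totals alone and with upper-quartile scaling, 1 with at least 1 CPM in 3 libraries, 1 with the abundance trend removed, 1 with halved counts, and 0 to 1 when single libraries were left out. Among values not past the test, Socs1 turned to -0.36 with library totals alone, -0.16 with upper-quartile scaling, -0.0074 with limma-voom and -0.011 with the replicate block, and ranged from -0.17 to 0.42 without single libraries. Cish turned to 0.85 with the abundance trend removed and ranged from -0.92 to 0.12 without single libraries, and the Cish to Socs2 ratio ranged from -0.63 to 0.056. Stat5b turned to -0.16 with library totals alone. Of pathway and marker genes, scaled in other ways after the data were seen, Clcf1 turned to -0.11 and Krt8 to -0.27 with library totals alone, Krt8 to -0.071 with upper-quartile scaling, and Il6st to -0.050, Krt8 to -0.63 and Krt19 to -0.04 with the abundance trend removed. The cause was not tested. Same-numbered replicates showed no common deviation from their group means (correlations 0.0071, 0.0013 and -0.041). With so few libraries per group, this cannot settle whether they shared a culture or day. The replicate block gave 5427 genes higher and 6088 lower and changed no call of the 10 genes, and for the ratios exact swaps within numbers cannot go below p = 0.25. As TPM, each level per kilobase moves to another scale, and the SOCS sum and Stat5b are lower in PP. Few counts limit Cish (68 and 45 counts per group) and Socs1 (117 and 111).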
